A study of Rattus norvegicus with 16 samples.

Results

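The 10 genes described here belong to the matrix metalloproteinase (MMP) system and were followed in rat ventral prostate. They were taken by symbol from the gene count tables, as 7 proteases (Mmp2, Mmp3, Mmp7, Mmp9, Mmp11, Mmp14 and Mmp23) and 3 tissue inhibitors of metalloproteinases (Timp1, Timp2 and Timp3), out of 33195 gene names in either table. Messenger RNA was sequenced from the glands of 16 offspring, 1 library for each. At postnatal day (PND) 540 there were 4 GLLP offspring, whose dams were fed 6% protein while pregnant and nursing, and 5 CTR offspring, whose dams were fed 17% protein. At PND 21 there were 3 GLLP offspring, numbered 2 to 4, and 4 CTR offspring, under the same feeding. No strain is named in the labels, nor which offspring had a mother in common, so the p-values reflect the variation among these glands only.

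Metalloproteinases are zinc-dependent enzymes made as inactive precursors that cut collagens, proteoglycans and other proteins of the extracellular matrix. The inhibitors bind the active enzymes and block them. Mmp14, anchored in the cell membrane, activates Mmp2 at the cell surface with Timp2 as the bridge between them, so this inhibitor takes part in activation as well. In the rodent prostate such enzymes take part in ductal growth after birth and in the regression of the gland after castration.

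All 10 genes had a row in the PND 540 table, and 9 had a row in the PND 21 table; Mmp11 was not analysed at PND 21. Library totals lay between 28748604 and 39161666 counts. Levels are given in CPM, counts scaled to library size, with library sizes adjusted by the trimmed mean of M values (TMM) over all 16 libraries. This allows a gene to be compared between libraries but not with another gene. The ages come from separate count tables with different sets of gene names, so age and table cannot be told apart in any value that sets PND 540 against PND 21. CTR replicate 5 at PND 540 stood apart, with a median correlation of 0.860 with the other libraries of that day against at least 0.967 for the rest. CTR replicate 1 at PND 21 held 0.282% mitochondrial counts, against 3.66% to 5.02% in the other libraries of that day. Markers of luminal epithelium and of ventral prostate secretion were abundant in every library, and seminal vesicle markers, of which 2 of 6 had a row at PND 21 and 5 of 6 at PND 540, summed to at most 0.168 CPM.

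At PND 21 the proteases Mmp14, Mmp2 and Mmp7 were higher in each of the 3 GLLP glands than in any of the 4 CTR glands, with fitted differences of 1.48-fold, 1.52-fold and 3.13-fold. None of the 8 genes tested passed an adjusted p of 0.05 in edgeR's quasi-likelihood test, where 1.11% of 14915 genes passed. The 3 inhibitors showed no such separation between the diets. The sizes and spreads follow gene by gene.

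Mmp14, also called MT1-MMP, had 75.0, 103 and 95.4 CPM in GLLP glands at PND 21, against 56.6, 59.5, 67.4 and 63.8 CPM in CTR glands. The groups did not overlap, and the log2 difference was 0.57 (SE 0.12, adjusted p = 0.0679 in edgeR). Mmp2, gelatinase A, which cuts type IV collagen and denatured collagens, had 124, 173 and 164 CPM in GLLP glands and 111, 92.0, 112 and 91.3 CPM in CTR glands. Every GLLP gland again lay above every CTR gland, with a log2 difference of 0.60 (SE 0.13, adjusted p = 0.0745 in edgeR). In both genes GLLP replicate 2 was the lowest of its group.

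Mmp7, matrilysin, a small protease without the hemopexin domain that epithelial cells make, showed the largest fitted protease difference between the diets. It had 10.1, 10.3 and 25.0 CPM in GLLP glands at PND 21, against 3.44, 3.78, 8.37 and 3.82 CPM in CTR glands. The log2 difference was 1.65 (SE 0.42, adjusted p = 0.101 in edgeR), with GLLP replicate 4 far above the other GLLP glands and CTR replicate 3 far above the other CTR glands. It was 1.07 without GLLP replicate 4 and 2.05 without CTR replicate 3. Mmp23, another protease without the hemopexin domain, had 8.35, 10.7 and 13.4 CPM in GLLP glands and 6.90, 5.61, 8.40 and 5.75 CPM in CTR glands. Its groups met at a single point, where GLLP replicate 2 fell just below CTR replicate 3, and the log2 difference was 0.70 (SE 0.21, adjusted p = 0.132 in edgeR). Mmp9, gelatinase B, which neutrophils and macrophages carry, was near the limit of detection at 0.394, 0.622 and 0.957 CPM in GLLP glands and 0.514, 0.221, 0.301 and 0.598 CPM in CTR glands. These few counts overlapped between the diets, with a log2 difference of 0.69 (SE 0.45, adjusted p = 0.419 in edgeR).

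**Figure D1:**
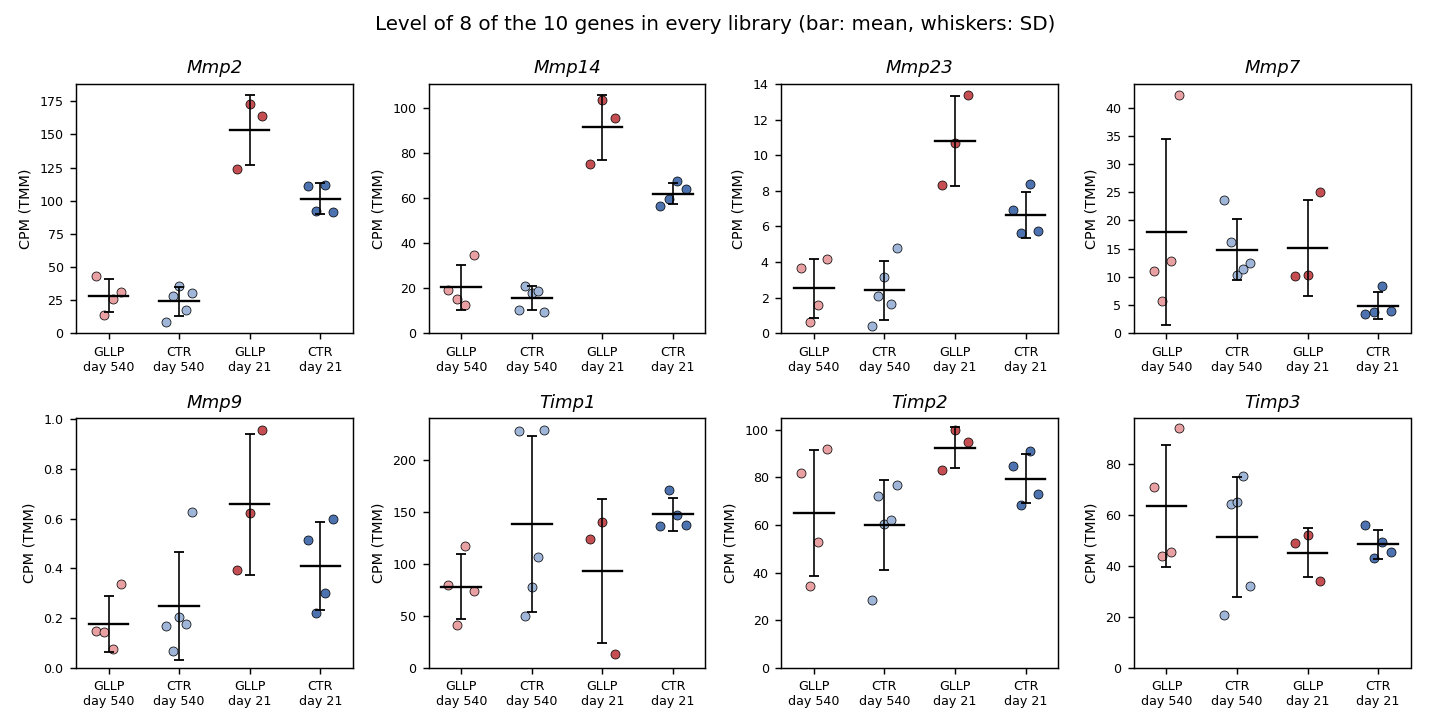
Levels of 8 of the 10 genes in CPM on TMM-scaled library sizes, 1 point for each library, with the mean as a bar and the SD as whiskers, for GLLP and CTR offspring at days 540 and 21. Mmp2, Mmp14 and Mmp23 are lower at day 540 in both diets, Timp2 and Timp3 overlap across days, and a single GLLP gland at day 21 stands far below the rest for Timp1.

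Among the 8 genes tested, 3 were higher in GLLP glands at PND 21 with no overlap, while 9.49% of all genes tested were. The same 3 and Mmp23 had an unadjusted p under 0.05, which 10.9% of all genes had in that direction. The median log2 difference of the 8 was 0.58, beside -0.0038 over all genes tested. The 4 proteases Mmp2, Mmp7, Mmp14 and Mmp23 were called higher in DESeq2, where 4.5% of genes were, and in limma voom with sample weights, where 12.7% were. They were also called higher in edgeR without GLLP replicate 2, where 5.25% of genes were, so the call at PND 21 depended on the tool and on this library.

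The promoter of Mmp7 is set here beside those of Mmp23 and Timp2, because these 3 genes show 3 different patterns over the ages and their promoters could be matched. Each sequence runs 5′ to 3′ on the gene's strand from 250 bases before the start to 50 bases after it, taken from RefSeq on the GRCr8 assembly, and capitals mark the motifs searched on both strands. The Mmp7 promoter lies at chr8:13132793-13133092 on the plus strand, the Mmp23 promoter at chr5:171524485-171524784 on the minus strand, and the Timp2 promoter at chr10:104089165-104089464 on the minus strand.
Mmp7: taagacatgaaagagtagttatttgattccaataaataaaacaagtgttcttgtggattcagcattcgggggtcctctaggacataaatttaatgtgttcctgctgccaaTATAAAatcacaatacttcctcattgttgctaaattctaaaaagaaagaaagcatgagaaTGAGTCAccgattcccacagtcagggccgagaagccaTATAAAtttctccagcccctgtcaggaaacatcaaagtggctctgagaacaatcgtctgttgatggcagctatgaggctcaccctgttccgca
Mmp23: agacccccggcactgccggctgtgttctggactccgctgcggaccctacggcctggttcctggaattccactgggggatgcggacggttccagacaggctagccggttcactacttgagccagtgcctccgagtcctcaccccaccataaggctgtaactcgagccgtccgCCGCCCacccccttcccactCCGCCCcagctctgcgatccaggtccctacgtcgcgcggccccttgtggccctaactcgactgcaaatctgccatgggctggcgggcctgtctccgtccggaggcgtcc
Timp2: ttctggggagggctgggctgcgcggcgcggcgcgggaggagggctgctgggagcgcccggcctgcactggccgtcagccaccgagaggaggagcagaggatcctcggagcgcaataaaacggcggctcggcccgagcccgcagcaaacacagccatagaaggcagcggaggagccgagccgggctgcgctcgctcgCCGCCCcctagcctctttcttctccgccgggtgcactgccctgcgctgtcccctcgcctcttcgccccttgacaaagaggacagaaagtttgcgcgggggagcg
The Mmp7 promoter held 1 match to the AP-1 motif TGANTCA, which 7.33% of 33469 promoters of this length held, with its first base 80 bases before the start. It also held 2 matches to TATAAA, present in 14.2% of promoters, and none to the GC box GGGCGG, present in 33.1%. The Mmp23 promoter held 2 matches to the GC box and the Timp2 promoter held 1, and neither had a match to the other motifs. Promoters could be matched for 7 of the 10 genes (Mmp3, Mmp7, Mmp11, Mmp23, Timp1, Timp2 and Timp3), and of these the AP-1 motif was in those of Mmp3 and Mmp7. A match describes the letters in this window and no binding was measured.

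Timp1, a secreted inhibitor of most soluble metalloproteinases, had 124, 141 and 13.4 CPM in GLLP glands at PND 21, against 137, 171, 147 and 137 CPM in CTR glands. The low value belonged to GLLP replicate 4, whose 420 Timp1 counts put it 9.27-fold below the lowest of the other 6 libraries of that day. In this library Timp1 and H3f3c were the only genes at least 8-fold below the lowest other library, among 8670 genes with at least 10 CPM in each of the other 6. The fitted log2 difference in Timp1 of -0.67 (SE 0.68, adjusted p = 0.618 in edgeR) became -0.16 without that library. Timp2 had 83.0, 99.8 and 94.8 CPM in GLLP glands and 84.8, 68.6, 91.1 and 73.2 CPM in CTR glands, which overlapped (log2 difference 0.22, SE 0.12, adjusted p = 0.325 in edgeR). Timp3, the inhibitor that stays bound to the matrix and also blocks several Adam and Adamts proteases, had 48.9, 52.2 and 34.1 CPM in GLLP glands and 55.9, 42.8, 49.1 and 45.5 CPM in CTR glands. Its groups overlapped as well, with a log2 difference of -0.10 (SE 0.15, adjusted p = 0.749 in edgeR), whose sign turned when library size alone was used, at 0.042.

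The 3 inhibitors and Mmp11 share their place in the genome with another gene, by the RefSeq annotation of GRCr8. Timp1 lies within Syn1, a synapsin gene on the opposite strand, and Mmp11 overlaps Chchd10 on the opposite strand. Timp3 lies within Syn3, whose strand was not available, and Timp2 overlaps Cep295nl on the same strand. Whether the counting used strand is not given in the sources used here. Reads of each of these overlapping pairs, Timp1 and Syn1 among them, may not have been kept apart. For Timp2 and Cep295nl, strand could not separate reads from the overlap. Syn1 was lower in GLLP glands at PND 21, with a lowest and highest value of 5.21 and 7.69 CPM, against 14.0 ± 1.99 CPM in CTR glands (SD, n = 4), with no overlap (log2 difference -1.12, SE 0.18, adjusted p = 0.0275 in edgeR). GLLP replicate 4, the library with little Timp1, had the highest Syn1 of the 3 GLLP glands.

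Protease to inhibitor ratios were taken as ratios of counts within a library, which need no scaling between libraries and are given as a description. The Mmp2 to Timp2 ratio was 1.65 ± 0.139 in GLLP glands and 1.28 ± 0.0515 in CTR glands at PND 21 (SD, n = 3 and 4), and every GLLP value lay above every CTR value. The Mmp14 to Timp2 ratio was 0.982 ± 0.0691 in GLLP glands and 0.787 ± 0.101 in CTR glands, again with no overlap. The Mmp2 to Timp1 ratio was 0.995, 1.23 and 12.2 in GLLP glands and lay between 0.539 and 0.811 in CTR glands, so it too separated the diets, with the largest value in the library that had little Timp1. Mmp9 to Timp2 overlapped, at 0.00475 to 0.0101 in GLLP glands and 0.00322 to 0.00818 in CTR glands, as did Mmp9 to Timp1 and to Timp3. Since Mmp2 and Mmp14 separated the diets by themselves, their ratios are not results apart from theirs. How often ratios of any other genes separate the diets was not computed.

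**Figure D2:**
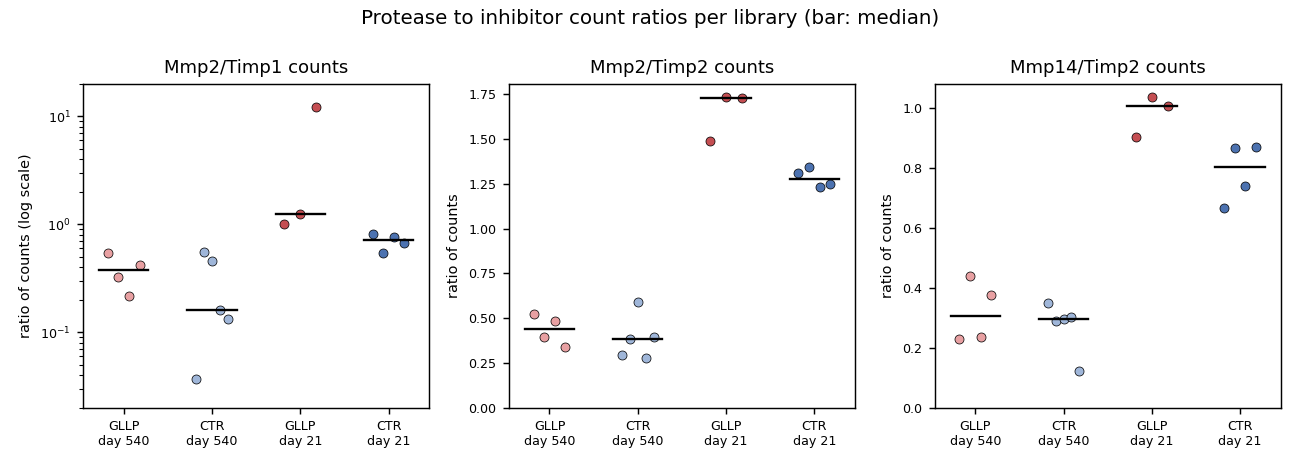
Ratios of protease to inhibitor counts in each library, with the median of each group as a bar, for GLLP and CTR offspring at days 540 and 21; the ratio to Timp1 is on a log scale. The Mmp2 to Timp2 and Mmp14 to Timp2 ratios at day 21 lie above every value at day 540, and within day 21 the GLLP points lie above the CTR points.

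Other genes of the pathway were read from lists of the same kind at PND 21, and none passed the threshold in edgeR. Over all genes tested, 19.3% had an unadjusted p under 0.05 in either direction. Of 25 matrix substrates tested, such as collagens, laminins and proteoglycans, 16 had one and 6 were higher in GLLP glands without overlap; DESeq2 called 8 and limma voom 19, all higher. Col6a1, a chain of type VI collagen, had 577 ± 95.4 CPM in GLLP glands and 401 ± 40.0 CPM in CTR glands (SD, n = 3 and 4; adjusted p = 0.0948 in edgeR), and Nid2, a basement membrane protein, had a log2 difference of 0.41. Of 18 Adam and Adamts proteases, 9 had an unadjusted p under 0.05, DESeq2 called 2, both higher, and limma voom called 6 higher and 2 lower. Over all genes, 10.4% were called lower in limma voom and 2.02% in DESeq2. Adamts15, a protease that cuts proteoglycans, had a fitted ratio of 1.95 (adjusted p = 0.0679 in edgeR), with 30.0 ± 7.79 CPM in GLLP glands and 15.4 ± 3.02 CPM in CTR glands. Of 19 activators, cofactors and other inhibitors, 9 had an unadjusted p under 0.05, DESeq2 called 1 lower, and limma voom called 8 higher and 2 lower. Plg, the plasminogen precursor, had 41.9 ± 16.2 CPM in GLLP glands and 92.9 ± 28.2 CPM in CTR glands (adjusted p = 0.109 in edgeR). Of 8 other metalloproteinase genes and Timp4 tested, 2 had an unadjusted p under 0.05, DESeq2 called 0, and limma voom called 1 higher and 1 lower. Timp4, the remaining inhibitor of the family, was lower in every GLLP gland than in any CTR gland, at 110 ± 22.8 CPM in GLLP glands against 145 ± 14.6 CPM in CTR glands (log2 difference -0.40, adjusted p = 0.197 in edgeR). Of 23 upstream signals and transcription factors, 6 had an unadjusted p under 0.05, DESeq2 called 3 and limma voom 7, all higher, with Tgfb1 and Tgfb3, ligands of the TGF-beta pathway, at log2 differences of 0.48 and 0.66.

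Markers of the cell types that the dissected tissue could hold were read beside these values. Of all genes tested at PND 21, 1.11% were called in edgeR, and 9.49% were higher in GLLP glands without overlap. DESeq2 called 4.5% of genes higher and 2.02% lower, and limma voom called 12.7% higher and 10.4% lower. All 10 skeletal muscle markers were called higher in edgeR and summed to 479 to 754 CPM in GLLP glands, against 36.4 to 54.8 CPM in CTR glands. The 8 fibroblast markers, among them Pdgfra and Fbln1, summed to 1104 to 1427 CPM in GLLP glands and 840 to 1133 CPM in CTR glands, and 4 of the 8 did not overlap between the diets, all higher. The basal epithelium markers summed to 756 to 1594 CPM in GLLP glands and 510 to 1032 CPM in CTR glands, and the macrophage markers to 251 to 378 CPM in GLLP glands and 161 to 370 CPM in CTR glands. Endothelium markers summed to 178 to 198 CPM in GLLP glands and 150 to 168 CPM in CTR glands. Singly, 1 of the 7 endothelium markers tested was higher without overlap. Smooth muscle sums overlapped, at 3808 to 4407 CPM in GLLP glands and 3485 to 4080 CPM in CTR glands. The ventral prostate secretion markers summed to 46108 to 64556 CPM in GLLP glands and 66789 to 83373 CPM in CTR glands, with no overlap of the sums. Singly they were mixed, with 3 of the 7 fitted log2 differences above 0, 4 below, and a median of -0.057. In edgeR none of the 7 was called, DESeq2 called 2 lower, and limma voom called 1 higher and 2 lower. The urothelium markers summed to 17.3, 11.5 and 50.8 CPM in GLLP glands, the highest in replicate 4, and 11.1 to 12.9 CPM in CTR glands; edgeR called none of the 3 tested and DESeq2 called 2 higher. The part of these cells in the protease values was not tested, and in bulk tissue more cells of a type and more RNA per cell cannot be told apart.

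At PND 540 the diets overlapped in all 7 genes tested, while 0.393% of all genes had no overlap. None passed the threshold in edgeR, where 0% of 14767 genes passed and the smallest adjusted p was 0.914; none of the 7 had an unadjusted p under 0.05, which 0.833% of all genes had, and DESeq2 and limma voom called none of them. Mmp2 had 43.0, 13.5, 25.5 and 31.1 CPM in GLLP glands, against 8.38, 27.7, 35.9, 17.2 and 30.2 CPM in CTR glands. Mmp14 had 18.9, 15.1, 12.4 and 34.7 CPM in GLLP glands, against 10.0, 20.9, 17.9, 18.8 and 9.34 CPM in CTR glands. Both spans are wide, and the fitted log2 differences were 0.24 (SE 0.44) for Mmp2 and 0.40 (SE 0.36) for Mmp14.

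Mmp7 at PND 540 had 11.0, 5.72, 12.8 and 42.2 CPM in GLLP glands, against 23.6, 16.2, 10.3, 11.3 and 12.5 CPM in CTR glands (log2 difference 0.27, SE 0.52). The GLLP group held both the lowest and the highest gland, and without GLLP replicate 4 the log2 difference was -0.57. Mmp23 had 0.644 to 4.17 CPM in GLLP glands and 0.419 to 4.81 CPM in CTR glands (log2 difference 0.04, SE 0.69). Mmp9 was left out of this test for low counts, at 0.0739 to 0.339 CPM in GLLP glands and 0.0670 to 0.626 CPM in CTR glands.

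Timp1 had the largest fitted difference of the 7 at PND 540 in edgeR. It had 79.8, 41.0, 118 and 74.2 CPM in GLLP glands, against 228, 49.6, 78.2, 107 and 229 CPM in CTR glands, with a log2 difference of -0.84 (SE 0.49, adjusted p = 0.914 in edgeR). It was -0.13 in limma voom and ran from -1.11 to -0.56 with a library left out. CTR replicates 1 and 5 lay well above all other glands, and the other 3 CTR values fell within the GLLP range. Timp2 had 81.8, 34.2, 52.8 and 91.9 CPM in GLLP glands and 28.5, 72.2, 60.5, 61.9 and 77.0 CPM in CTR glands. Timp3 had 70.6, 43.8, 45.3 and 94.0 CPM in GLLP glands and 20.6, 64.1, 64.8, 75.0 and 32.0 CPM in CTR glands. Neither inhibitor separated the diets, at log2 differences of 0.11 (SE 0.35) for Timp2 and 0.31 (SE 0.39) for Timp3. The Mmp2 to Timp2 ratio was 0.435 ± 0.0847 in GLLP glands and 0.388 ± 0.126 in CTR glands (SD, n = 4 and 5), which overlapped as well.

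Between the ages the same pair of proteases changed most clearly. Mmp14 and Mmp2 were lower at PND 540 than at PND 21 in both diets, 4.01-fold and 4.25-fold in CTR glands and 4.53-fold and 5.48-fold in GLLP glands, with no overlap of the ages. Mmp7 ran the other way in CTR glands, where it was 3.05-fold higher at PND 540, while the ages overlapped in GLLP glands. None of the 3 inhibitors passed the threshold in edgeR in either diet. In edgeR 2 of the 7 genes tested in CTR glands were called lower, where 13.2% of genes were, and 1 was called higher, where 17.3% were; in GLLP glands 4 of 8 were called lower, where 17.1% of genes were, and none higher, where 19.1% were. Without overlap, 3 were lower and 1 higher at PND 540 in CTR glands, where 18.9% and 18.8% of all genes were, and 4 were lower in GLLP glands, where 22.2% were.

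Mmp14 fell to 15.4 ± 5.33 CPM in CTR glands at PND 540, against 61.8 ± 4.76 CPM at PND 21 (SD, n = 5 and 4; 4.01-fold, SE 0.27 on the log2 scale, adjusted p = 4.24e-04 in edgeR). In GLLP glands it fell to 20.3 ± 9.97 CPM at PND 540, against 91.3 ± 14.6 CPM at PND 21 (SD, n = 4 and 3; log2 difference -2.18, SE 0.33, adjusted p = 0.00115 in edgeR). Mmp2 fell to 23.9 ± 11.0 CPM in CTR glands at PND 540, against 102 ± 11.5 CPM at PND 21 (log2 difference -2.09, SE 0.36, adjusted p = 0.00196 in edgeR). In GLLP glands Mmp2 fell to 28.2 ± 12.3 CPM at PND 540, against 154 ± 26.3 CPM at PND 21 (log2 difference -2.45, SE 0.34, adjusted p = 6.51e-04 in edgeR). Both genes kept these calls in all 17 alternatives for CTR glands and all 15 for GLLP glands. For both, the order of the group means was PND 21 GLLP, PND 21 CTR, PND 540 GLLP and PND 540 CTR, of which the last pair overlapped.

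Mmp23 fell to 2.52 ± 1.67 CPM in GLLP glands at PND 540, against 10.8 ± 2.52 CPM at PND 21 (log2 difference -2.11, SE 0.56, adjusted p = 0.0167 in edgeR). In CTR glands it had 2.42 ± 1.66 CPM at PND 540 and 6.67 ± 1.29 CPM at PND 21, with no overlap but an adjusted p of 0.0628 in edgeR (log2 difference -1.46, SE 0.53). The call in GLLP glands was lost without GLLP replicate 4 of PND 21 (adjusted p = 0.0612 in edgeR), and the gene was called in CTR glands in 6 of 17 alternatives, among them without CTR replicate 5 of PND 540 (adjusted p = 0.00873 in edgeR). Mmp9 fell to 0.176 ± 0.114 CPM in GLLP glands at PND 540, against 0.658 ± 0.283 CPM at PND 21 (log2 difference -1.88, SE 0.61, adjusted p = 0.0390 in edgeR). This call rests on few counts, at most 30 in a GLLP library of PND 21 and 10 in a GLLP library of PND 540, and held in 6 of 14 alternatives.

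Mmp7 rose to 14.8 ± 5.43 CPM in CTR glands at PND 540, against 4.85 ± 2.35 CPM at PND 21 (log2 difference 1.61, SE 0.37, adjusted p = 0.00827 in edgeR), and every PND 540 gland lay above every PND 21 gland. In GLLP glands it had 17.9 ± 16.5 CPM at PND 540 and 15.1 ± 8.53 CPM at PND 21, which overlapped (log2 difference 0.23, SE 0.65, adjusted p = 0.810 in edgeR). The 2 age comparisons share no library, but each shares its PND 21 glands with the diet comparison at that age.

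**Figure D3:**
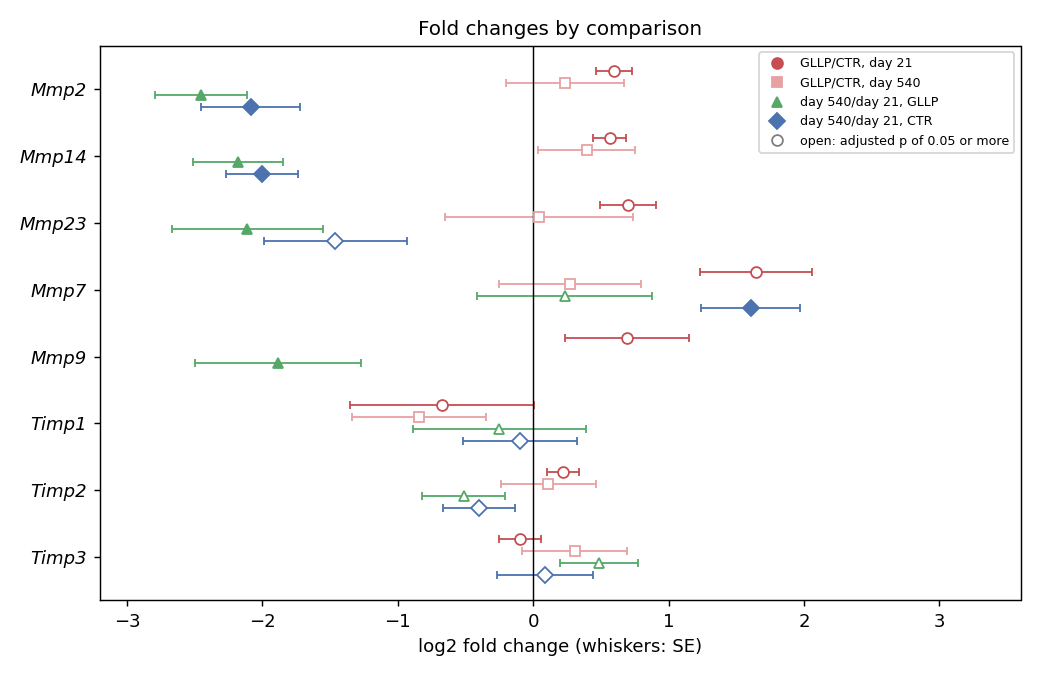
Fitted log2 fold changes with their SE for 8 genes in the diet comparisons at days 21 and 540 and the age comparisons within each diet; filled symbols passed an adjusted p of 0.05 in edgeR, open symbols did not, and Mmp9 was tested in 2 of the 4. Mmp2 and Mmp14 lie near -2 in both age comparisons, Mmp7 lies on the right in CTR glands, and the 3 inhibitors stay between -1 and 1 throughout.

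Among the inhibitors, Timp1 had 138 ± 84.9 CPM in CTR glands at PND 540 and 148 ± 15.9 CPM at PND 21 (log2 difference -0.10, SE 0.42, adjusted p = 0.879 in edgeR). Its spread was far wider at the later age, and limma voom with sample weights, in which 26.6% of genes were called lower, called it lower (log2 difference -0.93, adjusted p = 0.00871). In GLLP glands Timp1 had 78.2 ± 31.4 CPM at PND 540, against 124, 141 and 13.4 CPM at PND 21 (log2 difference -0.25, SE 0.64). Timp2 had 60.0 ± 18.9 CPM in CTR glands at PND 540 and 79.4 ± 10.4 CPM at PND 21, and 65.2 ± 26.5 CPM and 92.5 ± 8.64 CPM in GLLP glands, with log2 differences of -0.40 (SE 0.27, adjusted p = 0.281) and -0.51 (SE 0.30, adjusted p = 0.225) in edgeR. Timp3 had 51.3 ± 23.6 CPM at PND 540 and 48.4 ± 5.67 CPM at PND 21 in CTR glands, and 63.4 ± 23.8 CPM and 45.1 ± 9.63 CPM in GLLP glands, with log2 differences of 0.09 (SE 0.35) and 0.49 (SE 0.29). Syn1, whose gene encloses Timp1, rose with age in both diets, by log2 differences of 1.73 in CTR glands (SE 0.22, adjusted p = 2.94e-04 in edgeR) and 2.91 in GLLP glands (SE 0.35, adjusted p = 3.06e-04 in edgeR).

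The Mmp2 to Timp2 ratio lay between 0.277 and 0.593 in the 9 glands of PND 540 and between 1.23 and 1.74 in the 7 glands of PND 21. The Mmp14 to Timp2 ratio lay between 0.121 and 0.441 at PND 540 and between 0.667 and 1.04 at PND 21. The ages did not overlap in either ratio. The Mmp2 to Timp1 ratio did overlap, with 0.0367 to 0.558 at PND 540 and a lowest value of 0.539 at PND 21.

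Other genes of the pathway were compared between the ages in edgeR. Over all genes tested, 17.3% were called higher and 13.2% lower at PND 540 in CTR glands. In GLLP glands these shares were 19.1% and 17.1%. Of 26 matrix substrates tested, 20 fell in each diet, and 2 rose in CTR glands and 1 in GLLP glands. Col1a2, which rose in both diets, had a mean of 0.0821 CPM in CTR and 0.0830 CPM in GLLP glands at PND 21. In the same glands Col1a1 had 1979 and 3052 CPM. At PND 540 Col1a2 had 4.34 CPM in CTR and 5.81 CPM in GLLP glands. Whether Col1a2 was counted alike at both ages was not tested. Col1a1, a chain of type I collagen, fell to 40.4 ± 27.7 CPM in CTR glands at PND 540, against 1979 ± 375 CPM at PND 21 (adjusted p = 8.13e-05 in edgeR), and Col3a1, of type III collagen, fell to 70.8 ± 35.7 CPM in GLLP glands at PND 540, against 3006 ± 433 CPM at PND 21 (adjusted p = 1.13e-04 in edgeR). Of 18 Adam and Adamts proteases, 10 fell in CTR glands and none rose, while 11 fell and 1 rose in GLLP glands; Adamts12 fell by 4.69 on the log2 scale in CTR glands and by 4.20 in GLLP glands. Of the other metalloproteinases and Timp4, 2 rose and 1 fell of 7 tested in CTR glands, and 2 rose and 2 fell of 8 tested in GLLP glands. Mmp12, macrophage elastase, rose to 31.4 ± 26.9 CPM in CTR glands at PND 540, against 0.612 ± 0.228 CPM at PND 21, and to 26.3 ± 14.4 CPM in GLLP glands, against 0.919 ± 0.351 CPM at PND 21. Of 19 activators, cofactors and other inhibitors, 5 rose and 6 fell in CTR glands and 2 rose and 8 fell in GLLP glands, with Plau, the urokinase activator of plasminogen, 4.58-fold higher in CTR glands and Plg falling by 3.03 on the log2 scale there. Of the upstream signals and transcription factors, 6 of 24 rose and 2 fell in CTR glands, while 6 of 25 rose and 5 fell in GLLP glands, with Jun, a subunit of AP-1, 2.93-fold higher in GLLP glands.

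The cell type markers were compared between the ages as well, and their calls are to be read beside the same shares of all genes. The fibroblast markers summed to 119 to 586 CPM in CTR glands at PND 540, against 840 to 1133 CPM at PND 21, and 4 of 8 fell; in GLLP glands they summed to 239 to 764 CPM, against 1104 to 1427 CPM, and 6 of 8 fell. The smooth muscle markers fell in 6 of 8 cases in CTR glands and 7 of 8 in GLLP glands. The macrophage markers summed to 571 to 2053 CPM in CTR glands at PND 540, against 161 to 370 CPM at PND 21, with 6 of 10 higher and 1 lower, and to 519 to 951 CPM in GLLP glands, against 251 to 378 CPM, with 3 of 10 higher. The luminal epithelium markers rose in 3 of 8 cases in each diet and fell in none, and all 10 skeletal muscle markers fell in GLLP glands, to a sum of 11.7 to 19.9 CPM at PND 540. The part of these cells in the change of Mmp2, Mmp14 and Mmp7 was not tested.

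Whether the diet effect differed between the ages was tested for 8 genes in the fit of all 16 libraries. None passed the threshold in edgeR, where 0.0917% of 14178 genes passed, and none had an unadjusted p under 0.05, which 5.17% of all genes had, or a call by DESeq2 or limma voom. Mmp7 had the smallest p of the 8, with a diet effect lower at PND 540 than at PND 21 by a log2 difference of -1.36 (SE 0.76, adjusted p = 0.738 in edgeR). This value was -0.79 without GLLP replicate 4 of PND 21 and -2.23 without GLLP replicate 4 of PND 540. The corresponding values were -0.35 (SE 0.54) for Mmp2, -0.17 (SE 0.44) for Mmp14 and -0.15 (SE 0.82) for Timp1. No gene of the 5 pathway lists passed in this test either; 3 of the activators, cofactors and other inhibitors had an unadjusted p under 0.05, and DESeq2 and limma voom called none.

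Within PND 540, where the diets did not separate, levels of several genes moved together over the 9 glands. On log2 CPM with a pseudocount of 0.1, Mmp23 and Timp2 had a Pearson r of 0.949 (two-sided exact permutation p = 4.74e-04, adjusted 0.0108 over 49 pairs of both ages) and a Spearman rho of 0.90 (adjusted exact permutation p = 0.0681). Mmp2 and Mmp23 had r = 0.925 (exact permutation, adjusted p = 0.0108) and rho = 0.833 (adjusted p = 0.0810). Mmp14 and Timp3 had r = 0.902 (exact permutation, adjusted p = 0.0108) and rho = 0.85 (adjusted p = 0.0810), and Mmp2 and Timp2 had r = 0.881 (exact permutation, adjusted p = 0.0284) and rho = 0.767 (adjusted p = 0.117). None of the rank correlations passed the adjustment. Without the 2 glands farthest from the median of the first gene of each pair, r was 0.767 for Mmp23 and Timp2, 0.704 for Mmp2 and Mmp23, 0.928 for Mmp14 and Timp3, and 0.455 for Mmp2 and Timp2. Leaving out such glands narrows the range of the first gene, which can lower r by itself. Whether a correlation rests on those glands can therefore not be told from these values. Without CTR replicate 5, r for the 4 pairs lay between 0.877 and 0.959, and 7 pairs passed in place of 4. The 3 added were Timp2 and Timp3 (r = 0.912), Mmp23 and Timp3 (r = 0.880), and Mmp14 and Timp2 (r = 0.841). The share of all gene pairs with an r this high over these glands was not computed. It is therefore not known whether moving together is particular to these genes. Fibroblast marker sums also ranged widely there, from 119 to 586 CPM in CTR glands and 239 to 764 CPM in GLLP glands. Groups of 4 and 5 glands are too small for a correlation within a diet, and at PND 21 the diets lay apart in several of these genes, so no r is given there.

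**Figure D4:**
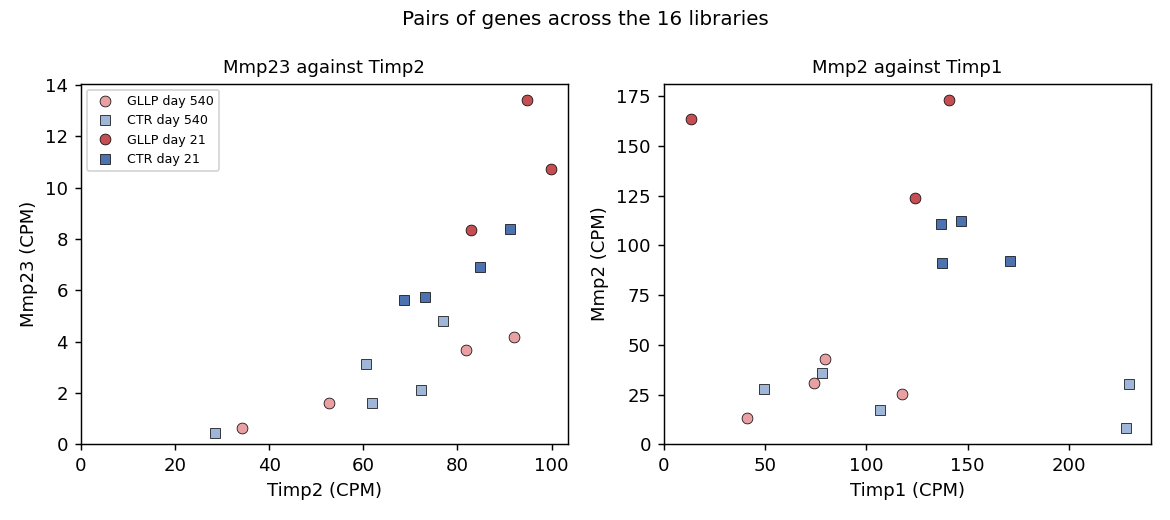
Mmp23 against Timp2 and Mmp2 against Timp1 in CPM, 1 point for each of the 16 libraries, with circles for GLLP and squares for CTR offspring and pale symbols for day 540. At day 540 Mmp23 runs with Timp2, and every day 21 point lies at a higher Mmp23 than any day 540 point, whereas Mmp2 shows no such run with Timp1 and the GLLP library with 13.4 CPM of Timp1 stands alone at the upper left.

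The genes whose levels were most like those of Mmp2, after the mean of each of the 4 groups was removed, were Rarres2 (r = 0.972), Mmp19 (r = 0.969), Eln (r = 0.965), Duox1 (r = 0.958) and Loxl3 (r = 0.951), as a description over 16 libraries and 14178 genes. Rarres2 makes chemerin, a chemoattractant, Eln makes elastin, and Loxl3 a crosslinking enzyme of the lysyl oxidase family. Those most like Timp1 were Uri1, Ybx1-ps3, Zfp3, Akt2 and Apoo, with lower values of r, between 0.800 and 0.870. Timp1 in GLLP replicate 4 at PND 21 lay 9.27-fold below the lowest other library of that day. That library may weigh heavily in the Timp1 values, which were not recomputed without it.

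Mmp3, stromelysin-1, had 0 to 3 counts in a library at PND 21 and 0 to 4 at PND 540, and was not tested. It had 0 counts in all 4 CTR glands of PND 21, and 3 counts there would have been 0.0848 to 0.0901 CPM. Mmp11, stromelysin-3, a stromal protease, had 0 counts in all 9 glands of PND 540, where 3 counts would have been 0.0732 to 0.107 CPM. Chchd10, which overlaps Mmp11, had 1.46 ± 0.576 CPM in GLLP glands and 3.14 ± 2.49 CPM in CTR glands at PND 540, and 81.1 ± 5.78 CPM and 82.4 ± 12.9 CPM at PND 21. These limits cover counting error only. Reads of Mmp11 and Chchd10 may not have been kept apart or may not have been counted, which was not tested. The 0 counts of Mmp11 therefore do not show by themselves that it was not expressed.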

How the data were processed

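Messenger RNA libraries from 16 ventral prostates were prepared from frozen tissue with standard Illumina methods, per the labels' protocols. Values deposited by the authors were raw counts for each gene, 1 table with 28688 entries for PND 21 and another with 24218 for PND 540, and 19709 gene names occur in both. The submitters' processing notes list STAR, edgeR 3.34.0 and genome build Rnor_6.0 but not what each was used for. Which program counted reads, with which annotation and strand setting, is not given in the sources used here. Totals ran from 28748604 to 39161666 counts per library, and counts of replicate pairs differed beyond sampling noise (chi-square per degree of freedom 30.3 to 829).

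R 4.3.3 and edgeR 4.0.16 were used for every comparison, over all genes passing filterByExpr, with TMM scaling, robust quasi-likelihood tests, Benjamini-Hochberg adjustment over all tested genes and a threshold of 0.05. Diet effects were fitted within an age, age effects within a diet on the shared gene names, and the interaction over all 16 libraries. SE is the log2 fold change divided by the square root of F. The tests were tested on simulated data. The alternatives were DESeq2 1.42.0, voom with sample weights in limma 3.58.1, scaling by library size alone or by RLE size factors, a filter at 1 CPM or none, dispersions estimated without robust weights, a replicate block, a joint fit of all libraries and leaving out each library.

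The genes described and the lists of other genes were chosen with earlier results of these data known. In each list the named genes were taken from the 3 with the smallest p in a comparison, except Col1a2, which is named outside this rule. Not all that this rule takes are named. Genes most like Mmp2 and Timp1 were the 5 with the highest correlation of log2 CPM (prior count 2) after group means were removed. RefSeq tables of GRCr8, which is not the build of the files, gave promoter sequences and overlapping genes. Figures were drawn with matplotlib 3.10.9.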

Additional observations from a re-analysis of the deposited data

Results flagged for a closer look

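Mmp7 in CTR replicate 3 at PND 21 had 8.37 CPM, while the other 3 CTR glands of that day had 3.44 to 3.82 CPM, so it was far from the rest of its group. Among 22 combinations of gene and group examined in this way 1 was picked out. The rule was set to pick out about 1 in 20 by chance, a rate that was not measured in these data. Without this library the log2 difference between GLLP and CTR glands at PND 21 was 2.05 for Mmp7, against 1.65 with it, and without GLLP replicate 4 it was 1.07.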

How the results depend on the processing

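The lower Mmp2 and Mmp14 at PND 540 and the higher Mmp7 in CTR glands kept their direction and call in every alternative run. The count of the 10 genes called at PND 21, 0 as reported, became 4 in DESeq2 and in limma voom, 3 with library size alone and 1 without a filter (Mmp14), and ran from 0 to 4 when each library was left out in turn, the 4 without GLLP replicate 2. In that comparison 166 genes were called in all, 150 higher and 16 lower, against 972 in DESeq2 (671 and 301), 650 with library size alone, 3455 in limma voom (1899 and 1556), 40 in the joint fit and 62 to 1509 with a library left out; without each single library the count was under 100 for CTR replicates 1 to 4 and GLLP replicate 3. At PND 21 the median log2 difference of all genes was 0.14 when only library size was scaled for. In CTR glands the age calls were 7478 of all genes and 5 of the 10 in limma voom, and 3040 to 6574 and 3 to 4 with a library left out, the highest without CTR replicate 5 of PND 540. In GLLP glands, 2 to 4 of the 10 were called with a library left out, 2 without GLLP replicate 4 of PND 21; library size alone called 1965 genes higher and 2916 lower there, against 2611 and 2341, and moved the median to -0.16. DESeq2 called 2 genes between the diets at PND 540 (Fuom and Marf1) and 46 in the interaction, where limma voom called 44 and leaving out a library gave 7 to 16. The cause of these shifts was not tested.

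Signs turned only for fold changes that were not called. With a library left out, log2 fold changes ran from -0.36 to 0.12 for Timp1 and -0.12 to 0.29 for Timp3 with age in CTR glands, and from -0.63 to 0.82 for Mmp7 and -0.77 to 0.18 for Timp1 in GLLP glands. Between the diets they ran from -0.22 to 0.064 for Timp3 at PND 21, and at PND 540 from -0.039 to 0.49 for Mmp2, -0.27 to 0.48 for Mmp23, -0.57 to 0.57 for Mmp7 and -0.065 to 0.35 for Timp2. In the interaction they ran from -0.56 to 0.00043 for Mmp14, -0.67 to 0.28 for Timp1 and -0.31 to 0.11 for Timp2. Timp3 at PND 21 was 0.042 with library size alone and 0.087 in limma voom, Mmp7 at PND 540 was -0.083 in limma voom, and Timp1 in the interaction was 0.24 in limma voom. Deviations of same-numbered libraries had correlations of -0.17 to 0.30. With so few libraries this check cannot show whether the numbers mark a pairing, and the labels name none. With a replicate block 27 genes and none of the 10 were called at PND 21, 0 at PND 540, 6012 and 4 with age in CTR glands, 3814 and 3 in GLLP glands, and 11 and 0 in the interaction; under the block Timp1 was 0.11 with age in GLLP glands and 0.18 in the interaction, Timp2 was 0.0064 in the interaction and Mmp7 was -0.12 at PND 540. The correlations at PND 540 without CTR replicate 5 were added after seeing the data; the 4 pairs passed again and 7 passed in all. Groups of 3 to 5 animals and wide spreads at PND 540 limit what could be detected, and few counts limit Mmp9 and Mmp3.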

Other observations

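In GLLP replicate 4 at PND 21, 2 genes lay at least 8-fold below the lowest other library of that day, H3f3c and Timp1. CTR replicate 1 had 11 such genes of 8476 examined, all mitochondrial, and the other 5 libraries had none. The same GLLP library had the highest Mmp7, Mmp9 and Mmp23 of the 7 glands of that day, at 25.0, 0.957 and 13.4 CPM, and the lowest Timp3, at 34.1 CPM. It also had the highest sums of the urothelium markers, at 50.8 CPM against 11.1 to 17.3 CPM in the other 6 libraries, and of the basal epithelium markers, at 1594 CPM. No explanation of this pattern was tested.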
